A study of Mus musculus with 8 samples.

Results

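Classical monocytes are the circulating myeloid cells that carry high Ly6C on their surface, leave the blood through the chemokine receptor CCR2 and, once in tissue, can become macrophages. The set described here holds 9 genes that are often used to recognize such cells in mice, *Ly6c2*, *Ccr2*, *Vcan*, *F13a1*, *Plac8*, *S100a4*, *Hp*, *Fpr1* and *Fpr2*, out of 26939 genes in the joined count tables. They were picked by name and not by a cut on a measured value, and all 9 passed the filter on low counts in every comparison. The genes were measured in tumor-associated macrophages (TAMs) taken at day 21 from tumors of EO771, a mouse breast cancer line grown in the mammary fat pad of adult female mice. The sort kept viable CD45+ cells that were positive for CD11b and F4/80 and negative for Gr-1.

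The 8 bulk RNA-seq libraries fell into 4 groups of 2. WT control and WT αMARCO came from C57BL/6J mice. *Unc93b1* 3d/3d control and *Unc93b1* 3d/3d αMARCO came from mice in which the endosomal trafficking protein UNC93B1 is mutated throughout the body, so that TLR3, TLR7 and TLR9 do not function. The αMARCO groups received 100 µg per dose of a rat IgG1 antibody (clone ED31) against the scavenger receptor MARCO, injected intravenously every 3 days from day 3 to day 12. The labels call the control groups untreated and name their libraries PBS, while the protocol names an isotype antibody, so which injection the controls received is not settled. The label of *Unc93b1* 3d/3d control replicate 2 reads 3d/4d in its genotype field and 3d/3d in its title. Control samples were pooled from several mice each, and nothing states whether the αMARCO samples were, so the P values measure the spread between these samples.

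Recruitment of monocytes into tumors rests on CCR2 and its ligands CCL2, CCL7 and CCL12. Cells inside tissue are then guided over short distances by formyl peptide receptors, G protein-coupled receptors that sense bacterial and mitochondrial peptides and, for FPR2, host ligands such as annexin A1 and serum amyloid A. The name of the gene set does not make the sorted cells classical monocytes. Antibodies to Gr-1 bind Ly6G and also Ly6C, so a Gr-1- gate works against cells with the highest Ly6C. Of 13 macrophage markers, *Adgre1*, which encodes F4/80, had 331 to 720 CPM and the complement gene *C1qa* 1392 to 2788 CPM, while *Mertk* had 66.6 to 168 CPM and *Trem2* the least, 2.96 to 15.98 CPM. CPM are counts scaled to library size with TMM factors.

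Among the 9 genes, the formyl peptide receptors *Fpr1* and *Fpr2* separated the genotypes most widely, and they lie next to each other on chromosome 17 in GRCm38, the build of the files. *Fpr1* (chr17:17876471-17883940) is read from the minus strand and *Fpr2* (chr17:17887824-17893952) from the plus strand, with 3883 bases between their starts. *F13a1* (chr13:36867178-37050244, minus strand) and *Ccr2* (chr9:124101950-124113557, plus strand) moved opposite to this pair between the control groups. The starts of these 4 genes are given from RefSeq (GRCm38.p6), each with 250 bases before and 50 bases after the annotated start, on the strand of the gene, since these are the genes with a called difference between control genotypes. Capitals mark matches to 4 motifs searched on both strands, GAGGAA (the core bound by the myeloid factor PU.1), TTGCNNAA (C/EBP), TGANTCA (AP-1) and GAAANNGAA (IRF). No matches overlapped.
Fpr1 (chr17:17883890-17884189, minus strand): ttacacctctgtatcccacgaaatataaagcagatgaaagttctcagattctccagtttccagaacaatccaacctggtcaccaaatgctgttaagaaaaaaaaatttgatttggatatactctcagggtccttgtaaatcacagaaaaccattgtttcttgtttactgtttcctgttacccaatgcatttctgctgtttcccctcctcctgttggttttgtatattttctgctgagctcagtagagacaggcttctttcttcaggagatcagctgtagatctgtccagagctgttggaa
Fpr2 (chr17:17887574-17887873, plus strand): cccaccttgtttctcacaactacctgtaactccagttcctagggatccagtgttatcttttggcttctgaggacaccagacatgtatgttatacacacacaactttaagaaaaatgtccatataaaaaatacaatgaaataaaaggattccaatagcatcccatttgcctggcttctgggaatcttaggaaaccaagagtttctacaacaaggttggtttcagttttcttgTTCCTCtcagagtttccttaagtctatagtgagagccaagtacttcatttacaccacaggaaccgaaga
F13a1 (chr13:37050195-37050494, minus strand): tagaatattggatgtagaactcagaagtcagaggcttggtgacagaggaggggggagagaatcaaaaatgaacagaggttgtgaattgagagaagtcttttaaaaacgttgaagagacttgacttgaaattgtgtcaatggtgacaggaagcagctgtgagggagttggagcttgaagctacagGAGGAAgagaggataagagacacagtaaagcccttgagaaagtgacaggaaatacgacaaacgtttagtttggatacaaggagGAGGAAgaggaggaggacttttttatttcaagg
Ccr2 (chr9:124101933-124102232, plus strand): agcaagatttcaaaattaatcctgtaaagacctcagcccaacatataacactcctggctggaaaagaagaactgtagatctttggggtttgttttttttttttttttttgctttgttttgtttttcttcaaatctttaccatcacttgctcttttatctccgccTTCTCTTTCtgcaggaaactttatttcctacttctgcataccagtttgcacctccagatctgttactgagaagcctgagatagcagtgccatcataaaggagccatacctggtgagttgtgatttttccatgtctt

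The *Fpr2* window holds 1 GAGGAA on the antisense strand, 19 bases before the start, and the *F13a1* window holds 2 on the sense strand. The *Ccr2* window, whose annotated start lies 233 bases inside the gene as the tables draw it, holds 1 antisense GAAANNGAA. The letters of none of the 4 motifs occur in the *Fpr1* window. Of the 8 genes in the set that had a promoter entry, 5 hold GAGGAA (*Ly6c2*, *F13a1*, *Plac8*, *S100a4* and *Fpr2*), against 28.3% of all 32851 promoters. GAAANNGAA occurs in 8.56% of all promoters and in 1 of the 8. TTGCNNAA and TGANTCA, held by 10.8% and 7.81% of all promoters, occur in 0 of the 8. These are letter matches and not measured binding.

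Levels can be compared between genes only per length. As FPKM, the median over the 8 libraries was 72.4 for *Plac8*, 63.7 for *Ccr2*, 52.7 for *Ly6c2*, 38.2 for *Fpr2*, 28.1 for *F13a1*, 12.7 for *Fpr1*, 8.69 for *Hp*, 6.79 for *Vcan* and 5.81 for *S100a4*. The ranges of neighbours in this order overlapped in every case, for example 36.5 to 123 FPKM for *Plac8* and 33.8 to 131 FPKM for *Ccr2*. The genes also differed in how far they moved across libraries. The highest CPM was 13.05 times the lowest for *Fpr1* and 7.71 times for *Fpr2*, but 2.126 times for *Ly6c2*. *S100a4* had 33 to 151 counts per library, *Hp* 85 to 415 and *Fpr1* 61 to 884.

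**Figure D1:**
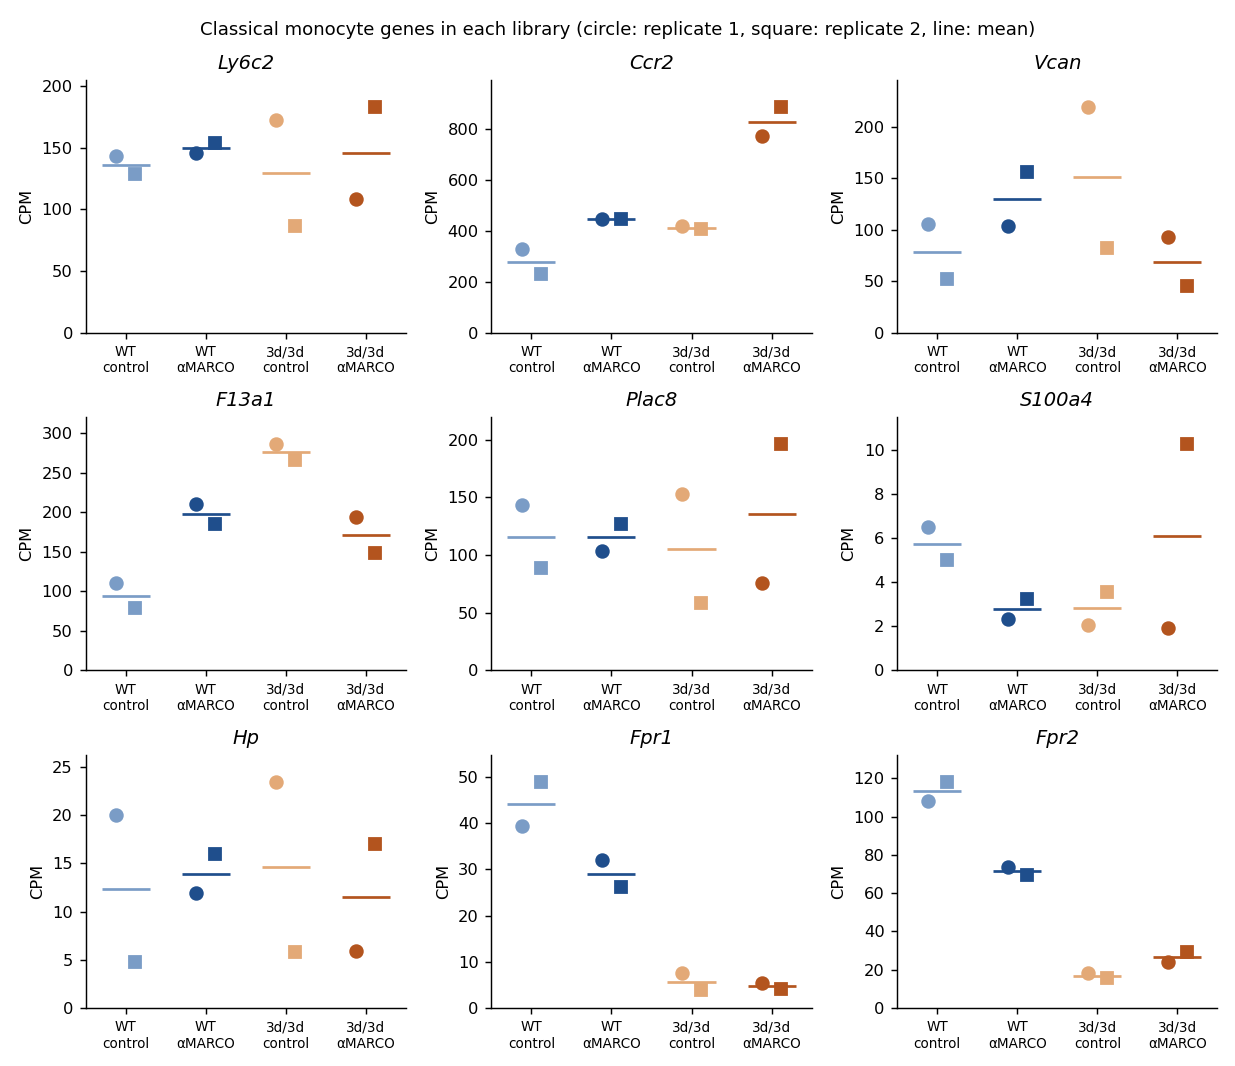
CPM of each of the 9 genes (vertical axis, from 0) in the 4 groups, with a circle for replicate 1, a square for replicate 2 and a line at the mean. *Fpr1* and *Fpr2* were high in all 4 WT libraries, while the 2 libraries of a group lay far apart for *Hp*, *Plac8* and *Vcan* in 3 of the groups.

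The total counts per library ranged from 15182618 to 26411936, so 3 counts, taken as the floor of detection, correspond to 0.114 to 0.198 CPM for counting error only. *Unc93b1* 3d/3d αMARCO replicate 2 stood apart. Against replicate 1 of its group, its short genes (up to 2414 bases) were higher by a median of 0.319 and its long genes (over 4936 bases) lower, with a median difference of -0.338 on the log2 scale, whereas the same medians in the other groups lay between -0.0231 and 0.0371. In that pair 23.7% of genes differed by more than 1 log2 unit, against 4.66% to 8.42% in the other groups. Values without this library are given beside the results that rest on it.

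The first question was how TAMs with and without working endosomal TLRs differed in control tumors. *Fpr1* and *Fpr2* were higher in WT, and *F13a1* and *Ccr2* were lower. These 4 of the 9 genes were called, meaning an edgeR adjusted P not above 0.05 with a change of 0.5 or more log2 units in either direction. Over all 15600 genes tested, 6.58% were called higher in WT and 6.4% lower, against 2 of the 9 genes in each direction.

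*Fpr2*, the receptor for annexin A1 and serum amyloid A, had 108 and 118 CPM in WT control against 18.02 and 15.3 CPM in *Unc93b1* 3d/3d control. *Fpr1*, the high-affinity receptor for bacterial formyl peptides, had 39.5 and 49.0 CPM against 7.53 and 3.75 CPM. For both genes the lower WT library was several times above the higher *Unc93b1* 3d/3d library. The log2 fold changes were 2.75 ± 0.12 (SE) for *Fpr2* (edgeR adjusted P = 2.85e-06) and 2.98 ± 0.31 for *Fpr1* (edgeR adjusted P = 0.0031), which correspond to 6.73-fold and 7.87-fold higher levels in WT. In bulk RNA, fewer cells of a type and less RNA per cell cannot be told apart, and this holds for every difference reported here. Both calls held under each of the alternatives run for this comparison, with log2 fold changes of 2.53 to 3.54 for *Fpr1* and 2.63 to 2.87 for *Fpr2* as each library was left out.

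*F13a1* encodes the A subunit of coagulation factor XIII, a transglutaminase that crosslinks fibrin and is made by monocytes and by resident-like macrophages. It had 111 and 78.1 CPM in WT control against 286 and 266 CPM in *Unc93b1* 3d/3d control. The groups did not overlap, and the log2 fold change was -1.56 ± 0.16 (edgeR adjusted P = 0.00115), so the level in *Unc93b1* 3d/3d was 2.95 times that in WT. This call too held in every alternative, between -1.83 and -1.32 with a library left out.

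*Ccr2* had 328 and 228 CPM in WT control against 416 and 406 CPM in *Unc93b1* 3d/3d control. The groups did not overlap, but the WT libraries differed from each other by more than the higher of them differed from the *Unc93b1* 3d/3d pair. The log2 fold change was -0.58 ± 0.16 with an edgeR adjusted P of 0.0455. The call was lost without WT control replicate 2 (-0.33, edgeR adjusted P = 0.121), without *Unc93b1* 3d/3d control replicate 1 (-0.56, 0.258) or without replicate 2 (-0.61, 0.198), in the model of all 8 libraries (-0.56, 0.223) and after each library's trend with gene length was removed (-0.485, 0.106).

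The ligands of CCR2 were lower in WT control as well. All 3 were called, with log2 fold changes of -0.52 for *Ccl2* (302 and 280 CPM against 358 and 464), -0.52 for *Ccl7* (336 and 361 CPM against 449 and 539) and -1.05 for *Ccl12* (107 and 121 CPM against 209 and 258). The median log2 fold change of the 3 ligands was -0.52, beside -0.00363 for all genes tested. *Ccl2* and *Ccl7* lay only just past the fold threshold of 0.5, and the ligand calls were not examined under the alternatives.

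*S100a4*, which encodes a calcium-binding protein of motile cells, had 6.53 and 4.99 CPM in WT control and 2.07 and 3.55 CPM in *Unc93b1* 3d/3d control. Its log2 fold change of 1.01 ± 0.33 missed the threshold (edgeR adjusted P = 0.0623). With the replicate block the adjusted P was 0.0329. It was also called without WT control replicate 2 (1.20, 0.028) or without *Unc93b1* 3d/3d control replicate 2 (1.45, 0.0377).

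The other 4 genes overlapped between the control genotypes. *Ly6c2*, the gene for the surface antigen that defines classical monocytes, had 143 and 129 CPM in WT control and 172 and 86.1 CPM in *Unc93b1* 3d/3d control. *Plac8*, an interferon-responsive gene of myeloid cells, had 143 and 88.5 CPM against 152 and 58.0 CPM. *Vcan*, which encodes the matrix proteoglycan versican, had 105 and 51.8 CPM against 220 and 82.7 CPM. *Hp*, the gene for the hemoglobin scavenger haptoglobin, had 20.0 and 4.71 CPM against 23.5 and 5.83 CPM. In each of these 4 genes, replicate 1 was above replicate 2 in both genotypes. None of the 4 was called (log2 fold changes of 0.06 ± 0.40, 0.12 ± 0.68, -0.96 ± 0.78 and -0.25 ± 1.21 in the order named, edgeR adjusted P = 0.508 for *Vcan*). Without *Unc93b1* 3d/3d control replicate 1, *Ly6c2* was called at 0.65 (edgeR adjusted P = 0.00631), and with the replicate block *Vcan* was called at -0.89 (edgeR adjusted P = 9.71e-06).

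A second list held 21 other genes of classical monocytes, such as *Chil3*, *Cd14* and *Lyz2*. In this comparison 1 was called higher in WT, the integrin gene *Itga4* (0.53), and 3 lower, *Ccr1* (-0.99), *Gda* (-0.77) and the lysozyme gene *Lyz2* (-0.51). The list's median log2 fold change was -0.08. Of 8 transcription factors of the monocyte lineage, *Klf4*, which is needed for monocyte development, was higher (0.77). Of 13 macrophage markers, *Itgam* was higher in WT (0.63) and *Trem2* (-1.50), *Apoe* (-1.33), *Mertk* (-1.30) and *Mrc1* (-1.07) were lower, in the same direction as *F13a1*.

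Markers of other cell types moved between the same groups. The summed level of 10 T cell markers was 112 and 123 CPM in WT control and 23.2 and 10.96 CPM in *Unc93b1* 3d/3d control, with 10 of 10 called higher in WT. The summed level of 9 NK cell markers was 117 and 103 CPM against 54.1 and 39.7 CPM, with 4 called. Nonclassical monocyte markers summed to 1766 and 1762 CPM against 689 and 553 CPM, with 6 of 11 called higher and *Cx3cr1* lower. Among them *Cd300e* had 557 and 616 CPM against 10.04 and 7.56 CPM, and *Spn*, which encodes CD43, had 133 and 165 CPM against 20.5 and 21.2 CPM. Of 8 markers of conventional dendritic cells, *Ccr7* (3.59) and *Xcr1* (1.06) were called higher in WT, and the list summed to 659 and 351 CPM against 130 and 85.6 CPM. Both Fpr genes are also expressed in neutrophils, whose 14 markers summed to 349 and 324 CPM against 276 and 234 CPM, most of it from *Csf3r* (262 and 279 CPM against 224 and 201 CPM). Of the other 13, *Camp*, *Ngp*, *Elane*, *Mpo* and *Ly6g* had at most 2, 5, 6, 5 and 16 counts in any of the 8 libraries, while *Mmp8* had 36.0 and 23.3 CPM in WT control against 27.7 and 23.7 CPM, *S100a9* 24.4 and 7.59 against 8.16 and 2.99, and *S100a8* 11.9 and 4.88 against 6.40 and 2.89. *Ltf*, a gene of neutrophil granules, was the 1 neutrophil marker called, higher in WT at 4.37 and 5.38 CPM against 1.004 and 0.304 CPM (2.92). Among the other markers, *Ncr1*, *Ltf*, *Epcam*, *Krt18* and *Klk1* were at 0 counts in at least 1 library. B cell markers summed to 111 and 160 CPM against 27.6 and 26.3 CPM, with *Cd79b* (3.89) and *Ighm* (2.12) of 7 called higher. Of 8 stromal and tumor cell markers, *Pecam1*, a gene of endothelium and some leukocytes, was higher (2.91, 203 and 199 CPM against 28.9 and 24.1 CPM) and *Col3a1* lower (-0.67). The part of T, NK, B, dendritic, neutrophil, stromal or nonclassical monocyte cells in the differences of *Fpr1*, *Fpr2*, *F13a1* and *Ccr2* was not tested.

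**Figure D2:**
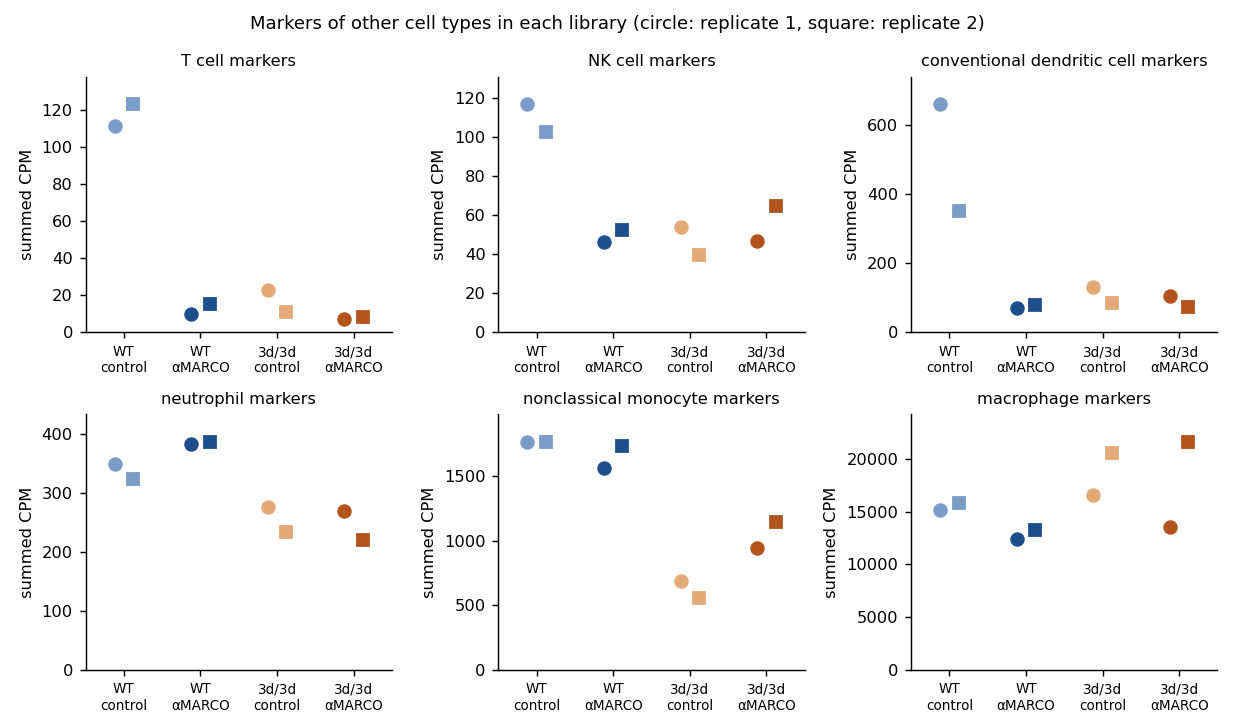
Summed CPM of 6 lists of marker genes (vertical axis, from 0) in each library, with a circle for replicate 1 and a square for replicate 2. T cell markers reached 112 and 123 CPM in WT control and at most 23.2 CPM elsewhere, and the nonclassical monocyte markers were higher in the 4 WT libraries than in the 4 *Unc93b1* 3d/3d libraries.

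The second question was what αMARCO did to these genes in WT tumors. *Ccr2* and *F13a1* were higher with αMARCO, and *S100a4*, *Fpr1* and *Fpr2* were lower. Over all 15630 genes tested, 8.91% were called higher and 11.8% lower, against 2 and 3 of the 9. This comparison uses the same WT control libraries as the one above, so the opposite directions of *F13a1*, *Ccr2*, *Fpr1* and *Fpr2* in the 2 comparisons share their baseline and are not separate evidence.

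*F13a1* had 211 and 185 CPM in WT αMARCO against 111 and 78.1 CPM in WT control. The log2 fold change was 1.07 ± 0.17 (edgeR adjusted P = 0.00641), a 2.10-fold higher level. Without WT αMARCO replicate 1 it was 0.98 with an edgeR adjusted P of 0.0605. *Ccr2* had 445 and 445 CPM against 328 and 228 CPM, a log2 fold change of 0.69 ± 0.16 (edgeR adjusted P = 0.0187). The αMARCO libraries were nearly equal, and the spread in *Ccr2* came from the control libraries. Its call was lost without WT control replicate 2 (0.44, below the fold threshold), without WT αMARCO replicate 1 (0.69, edgeR adjusted P = 0.145) and without replicate 2 (0.68, 0.132).

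*Fpr2* had 73.5 and 69.6 CPM in WT αMARCO against 108 and 118 CPM in WT control, with a log2 fold change of -0.65 ± 0.08 (edgeR adjusted P = 0.000507). *Fpr1* had 32.1 and 26.1 CPM against 39.5 and 49.0 CPM, with -0.60 ± 0.14 (edgeR adjusted P = 0.00888). Both receptors were thus lower with αMARCO but still above every *Unc93b1* 3d/3d library. The *Fpr2* call held whichever library was left out. The *Fpr1* call was lost without WT control replicate 2 (-0.44, below the fold threshold) and without WT αMARCO replicate 2 (-0.46, edgeR adjusted P = 0.0671).

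*S100a4* had 2.33 and 3.24 CPM in WT αMARCO against 6.53 and 4.99 CPM in WT control, with a log2 fold change of -1.03 ± 0.27 (edgeR adjusted P = 0.0163). Without WT αMARCO replicate 1 it was -0.81 with an edgeR adjusted P of 0.149. The model of all 8 libraries, whose spread includes that of *Unc93b1* 3d/3d αMARCO replicate 2, called none of the 5 genes (edgeR adjusted P from 0.0643 for *F13a1* to 0.407 for *S100a4*), and the model of 7 libraries without it called 4, with *Fpr1* at -0.62 (0.124). With each library's trend with gene length removed, *F13a1* and *S100a4* were called and *Ccr2* (0.595, 0.0526), *Fpr1* (-0.404, 0.0735) and *Fpr2* (-0.457, below the fold threshold) were not. Of 8 other S100a genes tested, 5 were called lower, among them *S100a8* (-2.32) and *S100a6* (-0.72), and none higher.

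*Ly6c2* had 146 and 154 CPM in WT αMARCO against 143 and 129 CPM in WT control. The groups did not overlap, but the log2 fold change was 0.15 ± 0.08 and was not called (edgeR adjusted P = 0.198). Its neighbour *Ly6c1* fell by 1.24 on the log2 scale, from 17.3 and 17.7 CPM to 8.69 and 6.17 CPM (edgeR adjusted P = 0.00111). *Plac8* (104 and 127 CPM with αMARCO), *Vcan* (104 and 157 CPM) and *Hp* (11.9 and 16.01 CPM) overlapped with their controls, with log2 fold changes of 0.00289 ± 0.29, 0.74 ± 0.53 and 0.18 ± 0.86. Without WT control replicate 1 *Hp* was called at 1.57 (edgeR adjusted P = 3.63e-05), and without WT control replicate 2 it was called in the other direction, at -0.51 (0.0243).

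Of the other 21 classical monocyte genes, 3 were called higher and 3 lower with αMARCO, and the list's median log2 fold change was 0.06, beside -0.01 for all genes. The highest was the lysozyme gene *Lyz1* (1.62, from 8.001 and 8.65 CPM to 27.1 and 23.8 CPM), followed by *Clec4e* (0.71), and *Gda* also rose (0.63). *Ly6c1* (-1.24), *S100a6* (-0.72) and *Itga4* (-0.55) fell. Among the ligands of FPR2, *Saa3*, which encodes a serum amyloid A, rose by 1.72 from 2.16 and 1.83 CPM to 4.76 and 8.29 CPM (edgeR adjusted P = 0.00312), while *Anxa1* was at 297 and 294 CPM against 282 and 336 CPM (0.07, 0.573). None of the 3 CCR2 ligands was called. Of the monocyte transcription factors, *Nr4a1* was higher (0.61) and none was lower. Marker sums moved too. T cell markers were at 9.9 and 15.2 CPM with αMARCO against 112 and 123 CPM in control, with 10 of 10 called lower, and nonclassical monocyte markers had 5 of 11 called lower and *Nr4a1* higher. NK cell markers were at 46.1 and 52.3 CPM against 117 and 103 CPM, with 5 of 9 called lower. Stromal and tumor cell markers were at 158 and 146 CPM against 326 and 304 CPM, with 5 of 8 called lower. Of the neutrophil markers *Ltf* (-4.09), *Cxcr2* (-3.27) and *S100a8* (-2.32) were called lower, and 1 B cell marker, *Cd79b* (-1.24). Markers of conventional dendritic cells summed to 69.1 and 80.3 CPM against 659 and 351 CPM, with 5 of 8 called lower, and of the macrophage markers *C1qa* (-0.73), *C1qc* (-0.71), *C1qb* (-0.59) and *Adgre1* (-0.54) were lower and *Maf* higher (0.70). Their part in the results for the 9 genes was not tested.

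**Figure D3:**
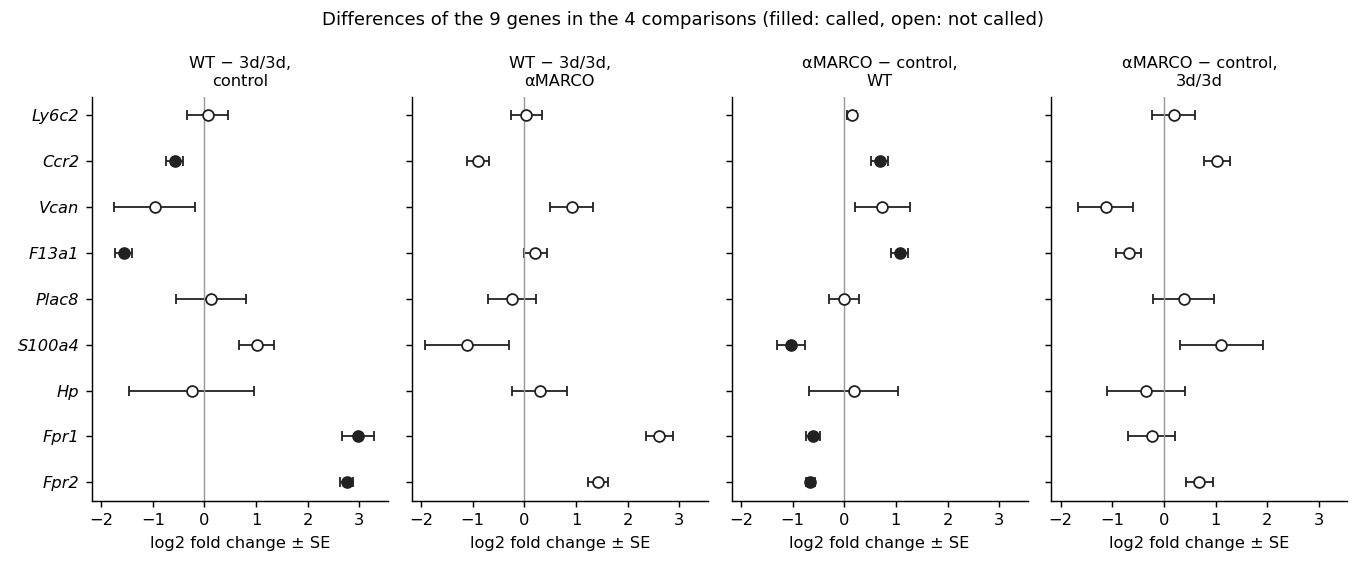
Log2 fold change ± SE (horizontal axis) of each gene in the 4 comparisons of 2 groups, with filled points for called genes and open points for the others. *Fpr1* and *Fpr2* stood at 2.98 and 2.75 between control genotypes and at 2.61 and 1.43 between αMARCO genotypes, where edgeR called neither.

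With αMARCO in both genotypes, *Fpr1* and *Fpr2* were again high in WT and low in *Unc93b1* 3d/3d, but edgeR on these 4 libraries called no gene. Of the 15722 genes tested 0 were called, which is 0% of the background and 0 of the 9, with 1076 genes and 3 of the 9 at an unadjusted P of at most 0.05. DESeq2 called 195 genes, and among the 9 *Fpr1* and *Fpr2*. edgeR called the same pair with the replicate block (adjusted P = 0.00227 and 0.0324, 97 genes in all), with no filter (107 genes) and in the model of all 8 libraries (108 genes). *Fpr1* had 32.1 and 26.1 CPM in WT αMARCO against 5.33 and 4.15 CPM in *Unc93b1* 3d/3d αMARCO, a log2 fold change of 2.61 ± 0.26 (edgeR adjusted P = 0.17, DESeq2 adjusted P = 9.62e-10). *Fpr2* had 73.5 and 69.6 CPM against 24.0 and 29.4 CPM, with 1.43 ± 0.20 (edgeR adjusted P = 0.23, DESeq2 adjusted P = 0.000628). The WT αMARCO libraries lay above both *Unc93b1* 3d/3d αMARCO libraries for each gene.

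*Ccr2* was highest of all groups in *Unc93b1* 3d/3d αMARCO, at 770 and 885 CPM against 445 and 445 CPM in WT αMARCO. The log2 fold change was -0.89 ± 0.21 (edgeR adjusted P = 0.507). In a model of the other 7 libraries, leaving out *Unc93b1* 3d/3d αMARCO replicate 2, the 3 genes *Fpr1* (2.45, edgeR adjusted P = 0.0192), *Fpr2* (1.58, 4.17e-06) and *Ccr2* (-0.79, 0.0219) were called. The library left alone in its group was assumed there to vary like the others.

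*Vcan* had 104 and 157 CPM in WT αMARCO against 92.7 and 44.9 CPM in *Unc93b1* 3d/3d αMARCO, without overlap and not called (0.92 ± 0.42, edgeR adjusted P = 0.709, and 0.495 without *Unc93b1* 3d/3d αMARCO replicate 2). *F13a1*, which differed between control genotypes, was at 211 and 185 CPM against 194 and 148 CPM, with overlapping groups and a log2 fold change of 0.21 ± 0.22, or 0.0292 without that library. *Ly6c2*, *Plac8*, *S100a4* and *Hp* overlapped, and the *Unc93b1* 3d/3d αMARCO libraries lay on either side of the WT pair. *Ly6c2* was at 109 and 183 CPM there, *Plac8* at 75.9 and 196 CPM, *S100a4* at 1.90 and 10.3 CPM and *Hp* at 5.91 and 17.1 CPM. For these 4 genes the direction depended on which of the *Unc93b1* 3d/3d αMARCO libraries was kept. *Plac8* was called at -0.76 without replicate 1, in a fit that called 6366 genes, and at 0.61 without replicate 2, in one that called 1252.

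Within *Unc93b1* 3d/3d tumors, edgeR called 0 of the 15428 genes and 0 of the 9 with αMARCO, a background of 0%, with 744 genes and 3 of the 9 (*Ccr2*, *F13a1* and *Fpr2*) at an unadjusted P of at most 0.05. DESeq2 called 52 genes and 0 of the 9. For these 3 genes the groups did not overlap. The share of all genes without overlap was not counted in this or the other comparisons, so the lack of overlap alone does not set them apart. *Ccr2* was at 770 and 885 CPM with αMARCO against 416 and 406 CPM in control, with a log2 fold change of 1.02 ± 0.25 (edgeR adjusted P = 0.823). *F13a1* was at 194 and 148 CPM against 286 and 266 CPM (-0.68 ± 0.24). *Fpr2* was at 24.0 and 29.4 CPM against 18.02 and 15.3 CPM (0.69 ± 0.25). In the model of 7 libraries without *Unc93b1* 3d/3d αMARCO replicate 2, *Ccr2* was called (0.90, edgeR adjusted P = 0.0206), while *Fpr2* stood at 0.53 (0.0518) and *F13a1* at -0.51 (0.217). Without replicate 1 of that group, in a fit of the remaining 3 libraries whose spread comes from the control pair alone, *Ccr2*, *F13a1*, *S100a4* and *Fpr2* were called (1.121, -0.88, 1.87 and 0.83), among 5500 genes called in all.

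The other members overlapped between the *Unc93b1* 3d/3d groups. *Fpr1* was at 5.33 and 4.15 CPM with αMARCO against 7.53 and 3.75 CPM in control (-0.24 ± 0.45). *Vcan* was at 92.7 and 44.9 CPM against 220 and 82.7 CPM (-1.13 ± 0.54, or -0.7035 without *Unc93b1* 3d/3d αMARCO replicate 2). *Ly6c2*, *Plac8*, *S100a4* and *Hp* had log2 fold changes of 0.19 ± 0.42, 0.38 ± 0.59, 1.11 ± 0.81 and -0.34 ± 0.75. None of the 21 other classical monocyte genes was called in either comparison that used the *Unc93b1* 3d/3d αMARCO libraries, where their medians were 0.08 for αMARCO against control and 0.20 for WT against *Unc93b1* 3d/3d. Without *Unc93b1* 3d/3d αMARCO replicate 2 these fits called 2 and 9 of the 21, and without replicate 1 they called 12 and 13.

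Whether αMARCO acted differently in the genotypes was tested as the difference between the effects, in a model of all 8 libraries. edgeR called 0 of the 16620 genes, a background of 0%, and 0 of the 9, with 2549 genes and 3 of the 9 at an unadjusted P of at most 0.05. DESeq2 called 200 genes and 2 of the 9. *F13a1* rose in WT with αMARCO and was lower in both *Unc93b1* 3d/3d αMARCO libraries than in control, a difference of 1.75 ± 0.30 (edgeR adjusted P = 0.281, DESeq2 adjusted P = 0.000103). *Fpr2* went the other way, with a difference of -1.34 ± 0.23 (edgeR adjusted P = 0.281, DESeq2 adjusted P = 0.00683). Without *Unc93b1* 3d/3d αMARCO replicate 2 edgeR called both, at 1.56 (adjusted P = 0.0106) and -1.20 (0.00164), among 612 genes in all, and without replicate 1 it called both and *S100a4* (-2.89, 0.000147) among 6440. *S100a4* was at -2.13 ± 0.96 with all 8 libraries (edgeR adjusted P = 0.327) and at -0.47 without replicate 2. *Ccr2* was higher in the αMARCO libraries than in the controls of both genotypes, and its difference was -0.33 ± 0.28 (edgeR adjusted P = 0.525). *Fpr1* had a difference of -0.37 ± 0.44, *Vcan* of 1.86 ± 0.75, *Ly6c2* of -0.04 ± 0.47, *Plac8* of -0.37 ± 0.74 and *Hp* of 0.53 ± 1.13.

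The 9 genes split by how well the libraries of a group matched. *Fpr2*, *F13a1* and *Ccr2* stayed close between the libraries of every group, the widest gap being -0.5227 log2 units for *Ccr2* in WT control. *Hp* differed by -2.06 in WT control, by -1.99 in *Unc93b1* 3d/3d control and by 1.51 in *Unc93b1* 3d/3d αMARCO (replicate 2 minus replicate 1). *Plac8* differed by -0.69, -1.39 and 1.37 in the same groups, and *Vcan* by -1.02, -1.41 and -1.05. *Ly6c2* differed by -0.9981 in *Unc93b1* 3d/3d control and 0.75 in *Unc93b1* 3d/3d αMARCO, and by at most 0.15 in either direction in the WT groups. WT αMARCO was the group with the closest libraries, with at most 0.59 log2 units for any of the 9 genes.

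**Figure D4:**
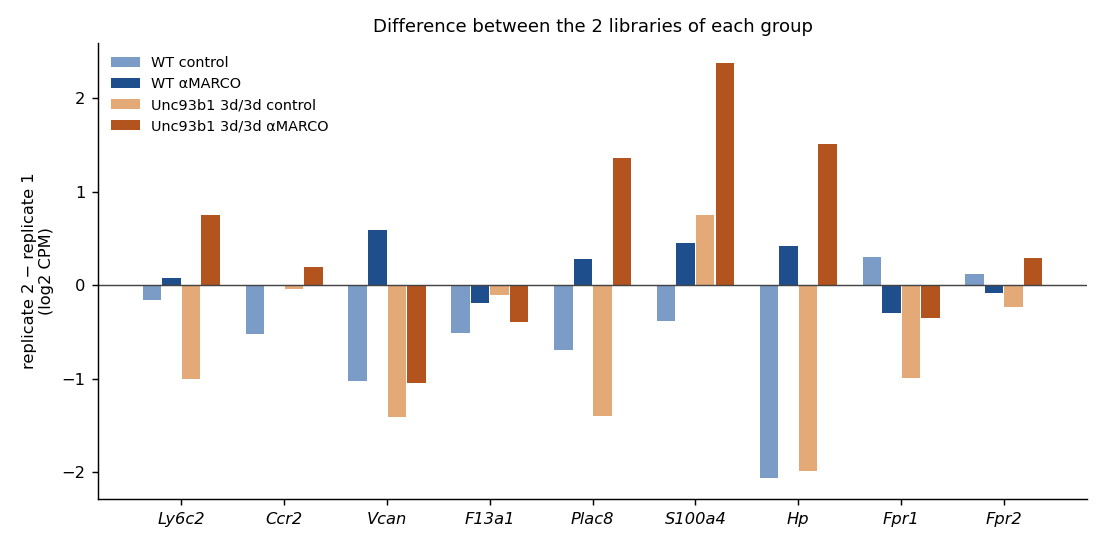
Replicate 2 minus replicate 1 in log2 CPM (vertical axis) for each gene, with a bar for each of the 4 groups. *Hp*, *Plac8* and *Vcan* differed by more than 0.5 log2 units between the libraries of WT control, *Unc93b1* 3d/3d control and *Unc93b1* 3d/3d αMARCO, and *S100a4* by 2.375 in *Unc93b1* 3d/3d αMARCO.

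Each gene was also set beside the 16620 genes that passed the filter over 8 libraries, by the root-mean-square (RMS) difference of centred log2 CPM. The nearest genes to *Fpr2* were *Nxpe4* (0.119), *Trdc* (0.244) and *Zbtb32* (0.250), and those to *Fpr1* were *Pecam1* (0.314), *BC049352* (0.317) and *Gm15987* (0.331). *Fpr1* and *Fpr2* were 0.534 apart, which placed *Fpr2* at rank 19 from *Fpr1* and *Fpr1* at rank 62 from *Fpr2*. *Plac8* was nearest to *Plagl1* (0.167), *Nfe2* (0.206) and *Gm14760* (0.217), with *Ly6c2* at rank 5 (0.243). *Hp* was nearest to *I830127L07Rik* (0.449), *Gm26944* (0.458) and *Plac8* (0.463).

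*Ly6c2* was nearest to *Crem* (0.128), *Ankrd37* (0.132) and *Slc25a33* (0.149). *Ccr2* was nearest to *Mob3b* (0.132), *Siglec5* (0.160) and *Hlx* (0.167), and its nearest gene of the set, *Ly6c2*, was at rank 6205. *F13a1* was nearest to *Rnf150* (0.197), *Gm24060* (0.211) and *Il4ra* (0.212). *Vcan* was nearest to *Gm6855* (0.246), *E330009J07Rik* (0.247) and *Zfp108* (0.278), and *S100a4* to *Gstp1* (0.217), *Gmfg-ps* (0.218) and *Epb41l4aos* (0.245). From *Ly6c2* the nearest gene of the set was *Plac8* at rank 86. For *Ccr2*, *F13a1*, *Vcan* and *S100a4* the nearest gene of the set came at rank 1433 or later.

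Reads of some genes cannot be told fully apart from those of others. *S100a4* (chr3:90603771-90606045) overlaps *Gm42674* on the same strand over 2115 bases, and 41.9% of the 100-base windows of its transcripts occur there too. *Gm42674* had 0 to 2 counts, so the low count of *S100a4* covers only reads that could be given to it. *Ly6c2* (chr15:75108158-75111970) shares 5.81% of its windows with *Ly6c1*, which had 111 to 329 counts against 1698 to 3984 for *Ly6c2*. *Fpr2* shares 12.3% with the annotated gene *Gm5966*, not used here, and overlaps *Fpr3*, which had 1 to 29 counts. *Vcan* (chr13:89655312-89742509) is overlapped on the other strand by *Gm4117* (22 to 72 counts), and the strand used in counting is not given in the sources used here. The remaining positions were chr5:100553725-100572245 for *Plac8* and chr8:109575128-109579172 for *Hp*.

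Of the partners of haptoglobin and heme that were tested (*Cd163*, *Hmox1*, *Hpx* and *Slc40a1*), none was called in any comparison. None of the 4 tested partners of versican, among them *Cd44* at 435 to 548 CPM, was called. Of the other transglutaminases, *Tgm2* was called higher in WT control than in *Unc93b1* 3d/3d control (0.50, 361 and 350 CPM against 240 and 257 CPM), in the opposite direction to *F13a1*.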

How the data were processed

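Poly-A RNA-seq (Illumina) was deposited for 8 libraries of sorted TAMs, 2 in each of 4 groups taken from the labels. Per the submitters' processing notes, the authors used fastp, HISAT2 2.0.5 and featureCounts 1.5.0 on GRCm38 and DESeq2 1.40.2. The strand setting of the counting is not given in the sources used here. The deposited raw read counts per gene were the only measurements used. The deposited tables also hold FPKM, a per-library signal of counts divided by size factors with its group means, and, for the authors' own comparisons, log2 fold changes, p-values and adjusted p-values, none of which was used.

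Matching the 3 tables on their gene identifiers gave 26939 genes. Of 95230 counts present in more than 1 table, 0 differed, and a gene missing from a table was set to 0 there. Totals were 15182618 to 26411936 counts per library. TMM factors, CPM and FPKM were computed from the joined counts and the tables' gene lengths. Each comparison was an edgeR 4.0.16 quasi-likelihood test (R 4.3.3, robust, filterByExpr) on its 4 libraries, with Benjamini-Hochberg adjustment over all genes tested, and the difference of the effects used all 8. Alternatives were DESeq2 1.42.0, its size factors, other filters and fold thresholds, all 8 libraries in 1 model, a replicate block, each library left out, and the sum of *Ly6c2* and *Ly6c1*. Removal of the trend with gene length (lowess, span 0.3) and the model of 7 libraries were chosen after seeing the data. The scripts were tested on simulated data. Gene positions came from GENCODE M21 and promoters from RefSeq, both on GRCm38.

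The 9 genes and all lists were chosen with earlier results of these data known. The text names the 9 genes in every comparison, up to 4 called genes of each other list per comparison, markers at 0, and the 3 genes nearest to each of the 9. Partners, neutrophil genes, CCR2 ligands and *Anxa1* were named beyond that rule, after their values were seen. Some genes of the lists are not reported here.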

Additional observations from a re-analysis of the deposited data

Results flagged for a closer look

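The effect of αMARCO on *F13a1* in WT minus that in *Unc93b1* 3d/3d was 1.753 on the log2 scale. It was flagged because both WT αMARCO libraries were above both WT controls while both *Unc93b1* 3d/3d αMARCO libraries were below both of their controls. *Fpr2* moved in the opposite sense, falling with αMARCO in the WT libraries and being above control in both *Unc93b1* 3d/3d ones, with a difference of -1.34. The test of the difference itself gave an edgeR adjusted P of 0.281 for each, with a range over the alternatives of 0.000103 to 0.656 for *F13a1* and of 5.47e-06 to 0.656 for *Fpr2*. How many of all genes show such opposite directions was not counted, so the flag does not set *F13a1* and *Fpr2* apart from other genes. With groups of 2, no search for outlying libraries within a group was made for single genes.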

How the results depend on the processing

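Over the 45 log2 fold changes of the 9 genes, 449 refits kept the direction and the call, 47 gained a call, 21 lost one and 46 reversed. In WT αMARCO against control, 5 of the 9 genes were called, against 2 at a fold threshold of 1 log2 unit, 2 with the length trend removed, 0 in the model of all 8 libraries and 2 to 6 with 1 library left out. In αMARCO against control in *Unc93b1* 3d/3d the count went from 0 to 1 with no filter (*Vcan*), to 1 in the model of 7 libraries (*Ccr2*) and to between 0 and 4 with a library left out. Between the genotypes under αMARCO it went from 0 to 2 (*Fpr1* and *Fpr2*) with DESeq2, with no filter, with the replicate block and in the model of all 8 libraries, to 3 in that of 7, and to between 1 and 5 with a library left out. For the difference of the effects it went from 0 to 2 with DESeq2 or no filter (*F13a1* and *Fpr2*) and to between 0 and 3. Between control genotypes it was 4 with each library left out in turn, with *Ccr2* lost in 3 of these fits and *S100a4* or *Ly6c2* gained, 3 with the length trend removed, at a fold threshold of 1 or in the model of all 8 libraries, 5 with no filter or in the model of 7, and 6 with the replicate block.

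The fold changes that reversed were those of *Ly6c2*, *Plac8*, *S100a4*, *Hp* and *Fpr1*. For αMARCO in WT, *Plac8* was at -0.00201 with no filter, -0.005357 in the model of all 8 libraries and -0.0214 in that of 7. In the model of 7, αMARCO in *Unc93b1* 3d/3d gave -0.2504 for *Ly6c2*, -0.4709 for *Plac8* and -0.5858 for *S100a4*, and the genotypes under αMARCO gave 0.6078 for *Plac8* and 0.5646 for *S100a4*. With the length trend removed, *Plac8* was at 0.05732 between the αMARCO genotypes and at -0.01113 between control genotypes, *Ly6c2* at -0.03473 between control genotypes, and the difference of the effects for *Ly6c2* was 0.1852, or 0.04307 with at least 10 counts in every library.

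With a library left out, αMARCO in WT ranged from -0.3068 to 0.3852 for *Plac8* and from -0.5113 to 1.572 for *Hp*. In *Unc93b1* 3d/3d it ranged from -0.2472 to 0.7727 for *Ly6c2*, -0.469 to 1.243 for *Plac8*, -0.5746 to 1.868 for *S100a4*, -1.296 to 0.9891 for *Hp* and -0.6592 to 0.3432 for *Fpr1*. Between the αMARCO genotypes the ranges were -0.2851 to 0.4643 for *Ly6c2*, -0.7573 to 0.6067 for *Plac8*, -1.862 to 0.5642 for *S100a4* and -0.2787 to 1.245 for *Hp*. Between control genotypes they were -0.3633 to 0.6475 for *Ly6c2*, -0.4218 to 0.9838 for *Plac8* and -1.631 to 1.074 for *Hp*. For the difference of the effects they were -0.6208 to 0.3709 for *Ly6c2*, -1.23 to 0.4495 for *Plac8*, -0.7902 to 1.918 for *Hp* and -0.9474 to 0.04905 for *Fpr1*. A library left alone in its group was assumed to vary like the others.

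The deviations of libraries with the same replicate number had correlations of -0.000984 and 0.00956 in the 2 comparisons with WT control and of 0.111 and 0.135 in those with *Unc93b1* 3d/3d αMARCO. With 2 libraries a group and no label that ties them, the numbers were not taken as a pairing. The replicate block left 5 of the 9 genes called for αMARCO in WT and moved the count from 4 to 6 between control genotypes. Over all genes it moved the calls from 3236 to 3086 for αMARCO in WT, from 0 to 5 for αMARCO in *Unc93b1* 3d/3d, from 0 to 97 between genotypes under αMARCO and from 2025 to 2395 in control, and left 0 for the difference of the effects. The model of all 8 libraries called 164, 1, 108 and 364 genes in the first 4 of these comparisons. With no filter 174 genes were called for αMARCO in *Unc93b1* 3d/3d, 107 between the genotypes under αMARCO and 152 for the difference of the effects, and the model of 7 libraries called 376 and 687 in the first pair of these. With the length trend removed these counts were 1, 20 and 3. Among the 21 other classical monocyte genes, 6 calls for αMARCO in WT became 4 to 11 with a library left out and 0 in the model of all 8 libraries, and 4 between control genotypes became 1 to 5 and 0. With a library left out, 0 such calls became 0 to 12 for αMARCO in *Unc93b1* 3d/3d, 0 to 13 between genotypes under αMARCO and 0 to 8 for the difference of the effects. With *Ly6c1* added to *Ly6c2*, its 5 fold changes lay between -0.08929 and 0.1313. The causes of these changes were not tested. With 2 libraries a group and as few as 33 counts for *S100a4*, small differences were not detectable.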
